A study of Mus musculus with 3 samples.

Results

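The 8 genes described here encode proteins that bundle actin filaments (Vil1 and Fscn1), sever them (Gsn, Cfl1 and Cfl2) or bind actin monomers (Pfn1, Pfn2 and Tmsb4x), among 20656 genes with a named probe on the arrays. They were chosen by name, through the RefSeq transcript that each probe was designed to. The rule used no signals, but the choice was made with earlier results of these data known. All 8 had a probe and together they had 12 of the 27229 named probes. Expression was measured with 1-colour Agilent arrays in cardiac myofibroblasts of the mouse, which arise after injury, contract and lay down matrix, in 3 states of substrate contact. Adherent cells were cultured on plastic plates, non-adherent cells were moved from plates into suspension, and re-adherent cells were put back on plates after suspension.

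All 3 groups came from male C57BL/6J mice with no transgene in the labels, whose left anterior descending coronary artery had been tied off permanently 3 days before the heart was taken. The labels give the age as 8 weeks in one field and as 10 weeks at ligation in another. In every group, heart cells from the digest were given a night to attach to plastic, and those with the leukocyte protein CD45 on their surface were removed, so the cells called myofibroblasts are defined by attachment and by the lack of CD45. Each group is 1 array of RNA mixed from several hearts. No spread between animals or cultures can therefore be computed, no test between the states was possible, and a difference in the text describes these 3 RNA samples. The states were collected one after another, so time in culture cannot be told apart from the state. The paper states that cell numbers fell in suspension because detached cells died. The non-adherent RNA thus comes from the cells that survived, and the re-adherent cells were grown from such survivors. The error given beside a log2 difference is the one that the scanner software assigned to the spots, about 0.20 for a bright probe. It covers the array measurement only, as does the median SD of 0.06 to 0.08 between differences from probes spotted 10 times on each array.

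In a resting cell, a large share of actin is held as monomers by beta-thymosins and profilins. Profilin passes monomers on to growing filament ends, whereas thymosin beta 4 keeps them from assembling. Cofilins and gelsolin cut filaments and so create new ends and free monomers, and fascin ties parallel filaments into the stiff bundles of filopodia. In myofibroblasts, actin filaments are gathered into stress fibres, which form on a stiff substrate and pull on the matrix through adhesions.

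Signals were expressed as log2 over the 75th percentile of the same array, and a difference between 2 arrays is called here when it exceeds 2-fold. Among 15389 genes well above background on at least 1 array, 14.7% were lower and 17.2% higher in non-adherent than in adherent cells by over 2-fold. Of the 7 members measured, 3 were over 2-fold lower (Fscn1, Cfl2 and Pfn2), 1 was over 2-fold higher (Gsn) and 3 lay within 2-fold (Cfl1, Pfn1 and Tmsb4x). Between non-adherent and re-adherent cells, 15.6% of all genes were over 2-fold higher and 16.3% over 2-fold lower on re-adhesion. Fscn1, Cfl2 and Pfn2 were over 2-fold higher on re-adhesion and no member was over 2-fold lower, although Gsn, at -0.66, passed 2-fold with quantile normalisation, at -1.37, and with no scaling, at -1.03. Between re-adherent and adherent cells, 4.84% of all genes were over 2-fold higher and 4.89% lower, and none of the 7 members passed 2-fold in either direction. With 7 genes these shares are not compared further with those of all genes. All 7 passed background on each of the 3 arrays. The comparison of re-adherent with adherent cells is the sum of the other two and adds no measurement of its own, and the non-adherent array enters both of them.

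**Figure D1:**
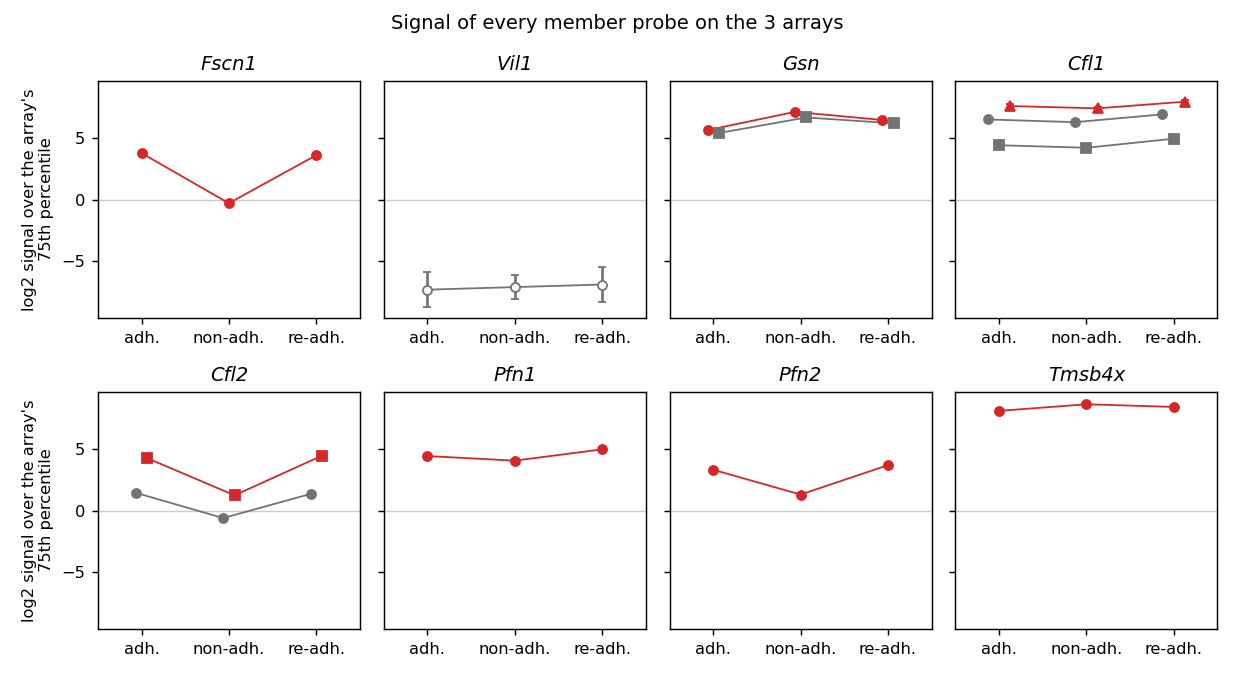
Signal of each of the 12 member probes in adherent (adh.), non-adherent (non-adh.) and re-adherent (re-adh.) cells, 1 array each, as log2 over the array's 75th percentile. Lines join the values of a probe, red marks the probe that represents its gene and grey the others, open symbols are not well above background, and bars are the software's error for the spot. Fscn1, Cfl2 and Pfn2 dip in suspension and come back, while Gsn and Tmsb4x have their highest value there. Heights cannot be compared between probes.

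Fscn1 encodes fascin, the bundling protein of filopodia, and had the largest difference among the members. Its probe (NM_007984, gene at chr5:142960355-142973189, GRCm38.p6) gave an intensity of 9133 in adherent, 573 in non-adherent and 6728 in re-adherent cells. The adherent and re-adherent arrays were high and close to each other, and the non-adherent array was low. After scaling, the signal was 17.1-fold lower in suspension, a log2 difference of -4.09 ± 0.20 (software error, 1 array a group), and 15.1-fold higher on re-adhesion, with a log2 difference of 3.92. Of the 15389 genes, 151 had a lower difference than Fscn1 in suspension and 253 a higher one on re-adhesion. Re-adherent cells differed from adherent cells by -0.18 on the log2 scale, which is within the software error.

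Vil1 encodes villin, which bundles filaments in the microvilli of absorptive epithelia. Its probe (NM_009509, gene at chr1:74409384-74435560) gave an intensity of 4.1, 5.0 and 4.5 in adherent, non-adherent and re-adherent cells. All were below the lowest signal that counted as well above background on its array, which was 16.7 in adherent and 18.3 in re-adherent cells. No fold is given for Vil1, and its transcript was not detectable in any state at this signal. Of 8 epithelial and mesothelial markers, Epcam and Cdh1 were likewise not well above background on any array. The other 6 passed on all 3, among them the keratins Krt8, Krt18 and Krt19 and the mesothelial genes Msln, Upk3b and Wt1. Their summed signal, in units of the 75th percentile, was 4.9, 2.9 and 11.2.

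Cfl1 and Cfl2 encode cofilins, small proteins that sever and depolymerise aged filaments. Cofilin 1 is the form of most non-muscle cells and cofilin 2 is best known from muscle. The representing probe of Cfl2 (NM_007688, gene at chr12:54858815-54862877) gave an intensity of 12523 in adherent, 1646 in non-adherent and 11942 in re-adherent cells. The non-adherent array again stood well below the other 2. This was 8.15-fold lower in suspension, with a log2 difference of -3.03 ± 0.20, and 9.34-fold higher on re-adhesion, with a log2 difference of 3.22. The other Cfl2 probe was dimmer, at 1768, 455 and 1380, and gave the same directions with smaller differences of -2.06 and 1.97. The 2 probes thus differed by more than the software error in how much Cfl2 changed, between 4.16-fold and 8.15-fold in suspension.

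Cfl1 changed little. Its brightest probe (NM_007687, gene at chr19:5490455-5494031) gave an intensity of 129754 in adherent, 122272 in non-adherent and 138537 in re-adherent cells. The 3 arrays lay close together, with the re-adherent one highest. In suspension the log2 difference was -0.18 ± 0.20 and its other 2 probes gave -0.22 and -0.21. On re-adhesion all 3 probes were higher, by 0.54, 0.63 and 0.74 on the log2 scale. Both directions depended on the scaling: with quantile normalisation Cfl1 was at 0.30 in suspension and at -0.27 on re-adhesion. Spots within 5 rows and columns of the probe with 0.74 were themselves shifted by 0.40 on re-adhesion, those around the other 2 by -0.15 and -0.25.

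Cfl2 was lower relative to Cfl1 by 2.84 ± 0.29 on the log2 scale in suspension, or 7.17-fold, and higher relative to it by 2.68 on re-adhesion, or 6.41-fold. In re-adherent against adherent cells the log2 difference between the paralogues was -0.16, within its error. These contrasts are taken within each array and do not move when an array is scaled by a constant. They rest on the brighter Cfl2 probe and moved with other processing. With the mean over probes they were -2.34 in suspension and 1.95 on re-adhesion, and with quantile normalisation -3.37 and 3.36. Destrin, encoded by Dstn, is the third protein of the family and depolymerises filaments more than it cuts them. Its probe gave log2 differences of -1.62 in suspension and 1.75 on re-adhesion, between those of Cfl1 and Cfl2.

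Pfn1 and Pfn2 encode profilins, which exchange the nucleotide on actin monomers and deliver them to formins and Ena/VASP proteins. Pfn1 is found in nearly all cells and Pfn2 is best known from neurons. The Pfn2 probe (NM_019410, gene at chr3:57841895-57847757) gave an intensity of 6494 in adherent, 1716 in non-adherent and 7007 in re-adherent cells. The non-adherent array was low and the other 2 were close. This was 4.05-fold lower in suspension, with a log2 difference of -2.02 ± 0.20, and 5.25-fold higher on re-adhesion, with a log2 difference of 2.39. Pfn1 (NM_011072, gene at chr11:70651844-70656799) gave an intensity of 14115, 11629 and 17148 in the same order. Its lowest value was also in suspension and its highest after re-adhesion, but both steps lay within 2-fold, at -0.38 and 0.92 on the log2 scale. Spots around the Pfn1 probe were shifted by -0.27 and 0.27 in the same steps, and with those shifts subtracted its difference in suspension was -0.11. Relative to Pfn1, Pfn2 was lower by 1.64 ± 0.29 on the log2 scale in suspension and higher by 1.47 on re-adhesion.

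The promoters of the pair of paralogues that fell, of their steadier partners and of Fscn1 are shown because these genes moved differently within a family. Each is the RefSeq window from 250 bases before to 50 bases after a transcript start (GRCm38.p6), printed on the strand of the gene. Capitals mark 3 motifs found on either strand, which are the TATA box core (TATAAA), the GC box bound by Sp1 (GGGCGG) and the core of the TEAD site (GGAATG).
Fscn1, chr5:142960105-142960404, plus strand: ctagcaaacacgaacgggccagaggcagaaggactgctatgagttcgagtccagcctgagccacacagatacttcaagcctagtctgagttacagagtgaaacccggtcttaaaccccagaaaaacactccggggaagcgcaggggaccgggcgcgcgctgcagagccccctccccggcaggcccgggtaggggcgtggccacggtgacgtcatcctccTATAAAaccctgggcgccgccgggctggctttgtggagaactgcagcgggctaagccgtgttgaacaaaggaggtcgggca
Cfl2, chr12:54862828-54863127, minus strand: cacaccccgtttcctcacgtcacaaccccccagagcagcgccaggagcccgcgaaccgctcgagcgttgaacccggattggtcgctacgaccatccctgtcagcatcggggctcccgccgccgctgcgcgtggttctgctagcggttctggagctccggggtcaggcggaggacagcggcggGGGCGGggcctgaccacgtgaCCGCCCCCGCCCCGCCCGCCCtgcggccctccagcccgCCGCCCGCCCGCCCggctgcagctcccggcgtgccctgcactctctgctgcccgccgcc
Cfl1, chr19:5490205-5490504, plus strand: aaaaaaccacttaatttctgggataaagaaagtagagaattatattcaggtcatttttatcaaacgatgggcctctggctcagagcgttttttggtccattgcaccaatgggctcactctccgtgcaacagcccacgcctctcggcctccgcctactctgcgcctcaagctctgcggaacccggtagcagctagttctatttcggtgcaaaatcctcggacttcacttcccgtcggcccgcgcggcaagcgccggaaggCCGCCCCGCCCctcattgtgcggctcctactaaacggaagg
Pfn2, chr3:57847708-57848007, minus strand: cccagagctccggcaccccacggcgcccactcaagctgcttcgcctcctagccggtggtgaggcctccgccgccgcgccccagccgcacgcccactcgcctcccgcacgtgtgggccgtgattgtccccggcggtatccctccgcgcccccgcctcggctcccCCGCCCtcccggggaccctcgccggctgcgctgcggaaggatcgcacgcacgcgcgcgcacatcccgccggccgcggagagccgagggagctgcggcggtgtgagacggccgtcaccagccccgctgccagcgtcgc
Pfn1, chr11:70654601-70654900, minus strand: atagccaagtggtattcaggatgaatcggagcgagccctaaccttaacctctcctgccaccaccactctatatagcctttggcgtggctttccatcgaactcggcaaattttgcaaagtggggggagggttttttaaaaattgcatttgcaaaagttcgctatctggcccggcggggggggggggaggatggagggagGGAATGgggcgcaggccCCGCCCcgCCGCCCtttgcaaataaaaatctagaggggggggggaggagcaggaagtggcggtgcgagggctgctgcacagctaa

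Positions are counted from the start, with -1 for the base before it. Fscn1 was the only member with TATAAA, whose first base lay at -31 and which occurred in 13.6% of the 32851 windows of this length. GGGCGG lay in a window of each of the other 7 members and in 35.7% of all windows. Cfl2 held 8 of them, several of which overlap, and Pfn2 held 1. The 2 windows were also rich in G and C, with 75.3% for Cfl2 and 77.7% for Pfn2 against 54.7% for Cfl1 and 57.0% for Pfn1. Fscn1, which also fell in suspension, was at 61.7%, and the windows of Gsn, which rose, were at 54.7% to 63.7%. The median over all windows was 52.7%. GGAATG occurred in Pfn1 among the members and in 14.7% of all windows. The CArG box, bound by serum response factor, whose coactivators are held back by actin monomers, was searched on both strands and matched in Vil1 among the members, with its first base at -73, and in 1.63% of all windows. A match describes the letters of a window and is not a measured binding site.

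Gsn encodes gelsolin, which severs filaments in response to calcium and caps their fast-growing ends. It was the member with the largest increase in suspension. Its representing probe (NM_146120, gene at chr2:35256359-35307902) gave an intensity of 33339 in adherent, 100210 in non-adherent and 49146 in re-adherent cells. The non-adherent array was the highest and the re-adherent array lay between the other 2. This was 2.81-fold higher in suspension, with a log2 difference of 1.49 ± 0.20, and 1.58-fold lower on re-adhesion, with a log2 difference of -0.66. The other Gsn probe gave 28285, 72915 and 40692 and log2 differences of 1.27 and -0.48. Re-adherent cells remained 1.77-fold above adherent cells by the first probe and 1.73-fold by the other, the largest difference between these states among the members with this scaling. With scaling to the spike-in probes Gsn was at 0.32 and Fscn1, at -0.68, lay farther from 0.

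Tmsb4x encodes thymosin beta 4, the main protein that sequesters actin monomers. Its probe (NM_021278, gene at chrX:167207093-167213479) gave an intensity of 181071 in adherent, 281129 in non-adherent and 188008 in re-adherent cells. The non-adherent array was the highest, but after scaling the log2 differences were 0.54 ± 0.20 in suspension and -0.22 on re-adhesion, both within 2-fold. Scaling to the spike-in probes brought the first to 0.10 and quantile normalisation raised it to 1.00, and with the shift of neighbouring spots subtracted the second was -0.02. Its paralogue Tmsb10, which encodes thymosin beta 10, went the other way, with log2 differences of -1.07 and 1.33. Relative to Tmsb4x, Tmsb10 was lower by 1.61 ± 0.29 on the log2 scale in suspension and higher by 1.55 on re-adhesion. Tmsb4x, Cfl1 and Pfn1 have closely related copies in the genome, and whether their probes also read those copies was not tested.

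**Figure D2:**
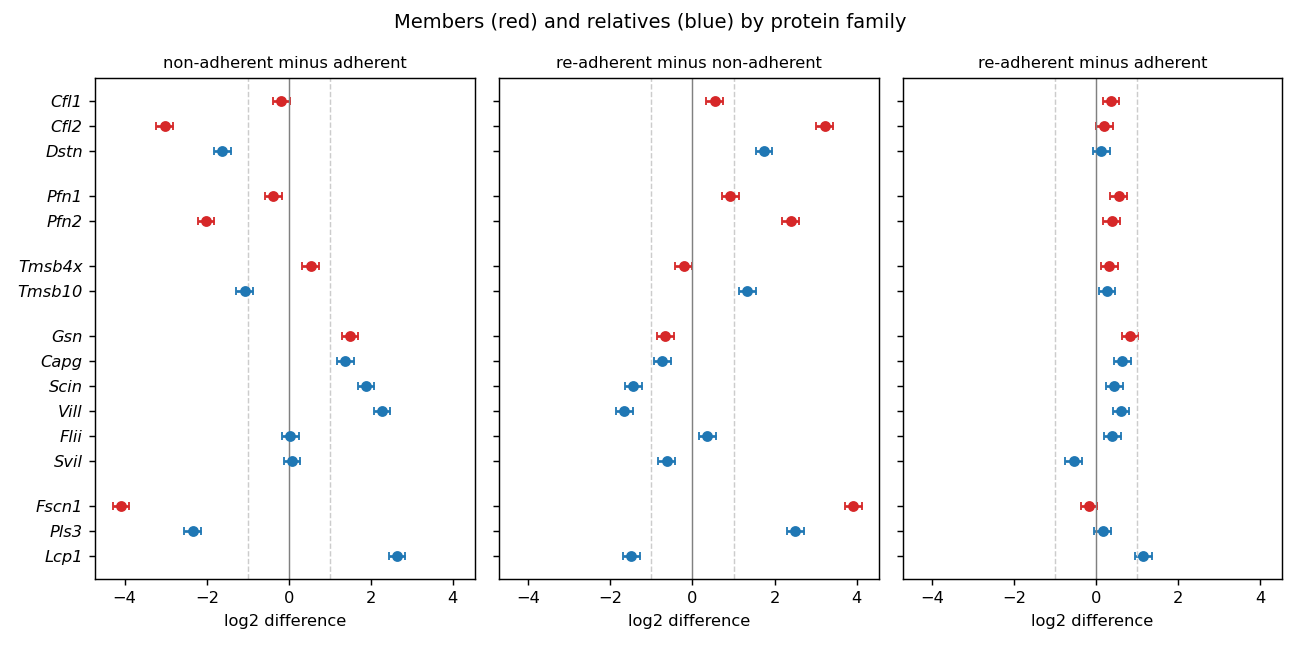
Log2 difference of each measured member (red) and of selected relatives (blue), grouped by family, for the 3 comparisons named above the panels. Points are 1 array against 1 array, bars are the software's error, and dashed lines mark 2-fold. Cfl2, Dstn, Pfn2, Tmsb10, Fscn1 and Pls3 lie to the left in suspension and to the right on re-adhesion, whereas Gsn, Capg, Scin, Vill and Lcp1 lie on the opposite sides. Vil1 and Avil were not well above background and are not drawn.

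Of the other villin and gelsolin family genes, 5 of 6 were measured, and 3 of these were over 2-fold higher and none lower in suspension, with a median log2 difference of 1.37 against -0.07 over all genes. They were Vill at 2.27, Scin at 1.88 and Capg at 1.37, while Flii, at 0.03, and Svil, at 0.08, lay near 0. Capg encodes a protein that caps but does not cut filaments, and its differences of 1.37 and -0.73 were within error of those of Gsn. Of the 5 measured bundling genes besides the members, 1 was lower and 1 higher by over 2-fold in suspension. Pls3, which encodes the plastin of most solid tissues, was at -2.35 in suspension and 2.51 on re-adhesion, and its other probe gave -2.44 and 2.55. Lcp1, the plastin of leukocytes, was at 2.64 and -1.49, and its other probe gave 2.54 and -1.40. Relative to Lcp1, Pls3 was 31.6-fold lower in suspension and 16.0-fold higher on re-adhesion.

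Most markers of macrophages moved with Gsn, Capg and Lcp1. Of 17 macrophage markers, 15 were measured, 14 of these were over 2-fold higher in suspension, and their median log2 difference was 2.69. Their summed signal in units of the 75th percentile was 256 in adherent, 1624 in non-adherent and 531 in re-adherent cells. Ptprc, the CD45 gene itself, passed background on every array and was at 2.68 in suspension, and Csf1r was at 2.61. On re-adhesion 13 of the 15 were over 2-fold lower and 1, Cx3cr1, was over 2-fold higher, at 1.95. Itgam went the other way in both steps, at -0.84 and 0.68. Cd163 did not pass background on any array, and Cd68 had no named probe here. The part of such cells in the members' differences was not tested. In RNA from a whole culture, fewer cells of a type and less RNA per cell cannot be told apart. All 12 fibroblast and myofibroblast markers were well above background on every array, and they did not move one way: 5 were lower and 2 higher by over 2-fold in suspension, and 5 lay within 2-fold, with a median of -0.63. Acta2, the smooth muscle actin of stress fibres, was at -6.64 in suspension and 6.57 on re-adhesion. The matrix proteoglycan genes Lum, at 3.56 and -6.41, and Dcn, at 1.69 and -3.20, went the opposite way, while Postn, at -0.12, and Col3a1, at 0.19, were near 0 in suspension. Their summed signal was 1798 in adherent, 913 in non-adherent and 1491 in re-adherent cells, and without Acta2, the brightest of them, 1130, 906 and 854. Leaving out the brightest gene of a marker list was chosen after seeing the data.

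Of 18 measured genes for destrin and for regulators of cofilin, 2 were lower and 7 higher by over 2-fold in suspension, with a median log2 difference of 0.28. Besides Dstn, the lower one was Wdr1, at -1.13, whose product speeds up disassembly by cofilin. The kinases that switch cofilin off by phosphorylation were within 2-fold, with Limk1 at -0.44 and Limk2 at -0.14. Of the slingshot phosphatases that switch it on again, Ssh1 was at -0.48, Ssh2 at 1.57 and Ssh3 at 2.67. The other Ssh2 probe gave 1.125. The coronins, which bind filaments and guide cofilin, included Coro1a at 2.30, Coro2a at 2.55 and Coro7 at 2.42. Coro1b was at 1.01, and Coro1c, at 0.17, and Coro2b, at 0.14, lay near 0. Gmfg, which encodes a relative of cofilin that removes branches, was at 3.87. Coro1a and Gmfg are best known from leukocytes, and most macrophage markers moved the same way as given above.

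Of 7 measured genes for other monomer-binding proteins, 2 were lower and 3 higher by over 2-fold in suspension, with a median of 0.31. Cap1 and Cap2 encode cyclase-associated proteins, which recharge monomers released by cofilin. Cap1 was at 0.17 in suspension and 0.48 on re-adhesion. Cap2 was not well above background in suspension, where it was at least 13.6-fold lower than in adherent cells, and re-adherent cells were at least 18.4-fold higher. These bounds set the dim array at its lowest signal well above background. Mtss1, which encodes a membrane-bending protein that also binds monomers, was at 2.67, Cotl1, a partner of filaments despite its cofilin-like fold, at 1.95, and Twf2, a twinfilin, at 1.39.

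**Figure D3:**
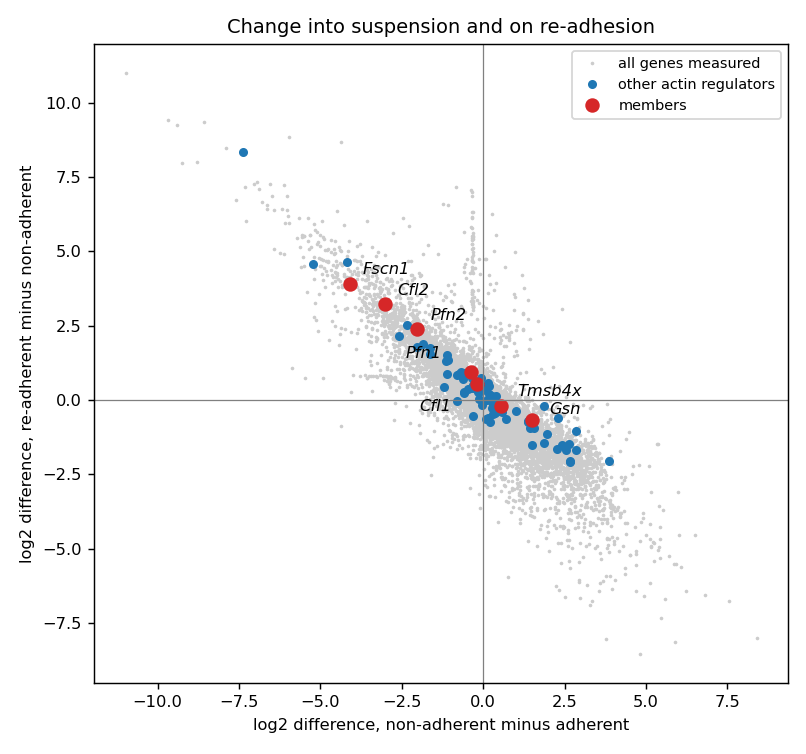
Log2 difference of non-adherent minus adherent cells (horizontal) against re-adherent minus non-adherent cells (vertical) for 15389 genes (grey), other actin regulators (blue) and the 7 measured members (red). The non-adherent array enters both axes, which by itself pulls points towards the falling diagonal, so the slope of the cloud is not read as a result. Fscn1, Cfl2 and Pfn2 lie at the upper left and Gsn at the lower right. Regulators not well above background on 1 array are drawn at their measured signal.

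Between re-adherent and adherent cells, the members' log2 differences ran from -0.18 for Fscn1 to 0.83 for Gsn, with Cfl2 at 0.20, Tmsb4x at 0.32, Cfl1 at 0.36, Pfn2 at 0.38 and Pfn1 at 0.55. From Cfl2 up to Gsn each gene in this order differed from the next by less than 0.29, the error of a difference between probes, and the step from Fscn1 to Cfl2 was larger. The median was 0.36 against 0.06 over all genes, and 6 of 7 lay above 0. With the arrays scaled to the spike-in probes Cfl1, Cfl2, Pfn2 and Tmsb4x fell below 0, at -0.15, -0.31, -0.13 and -0.19, and the median over all genes moved to -0.44. Relative to the median over all genes, which a constant scaling does not change, Gsn was at 0.76, Pfn1 at 0.48, Cfl1 at 0.30 and Fscn1 at -0.24.

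**Figure D4:**
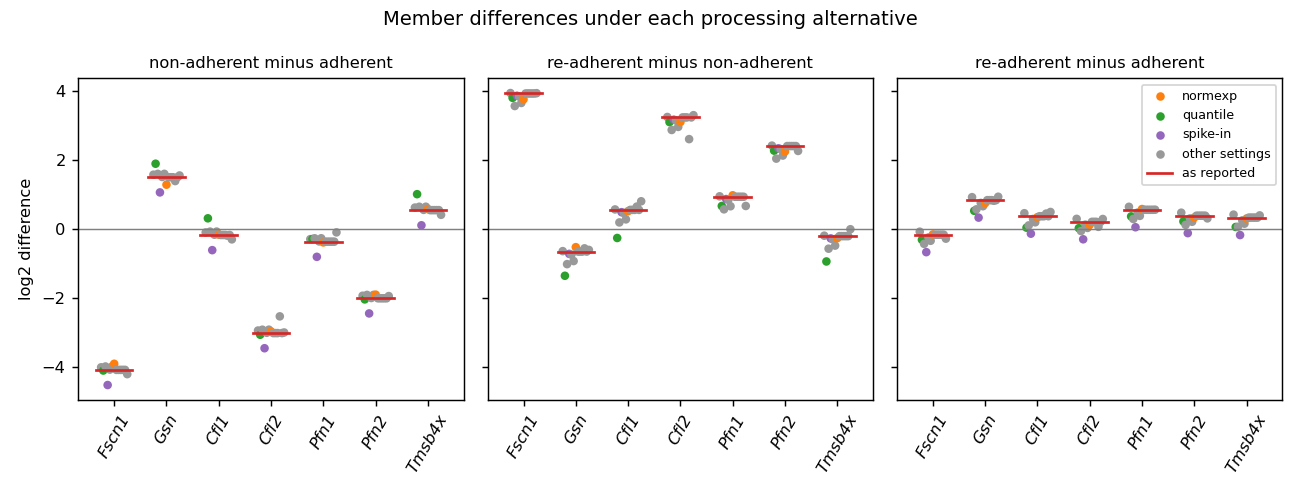
Log2 difference of each measured member under each processing alternative (points) beside the value reported (red line), for the 3 comparisons named above the panels. Fscn1, Cfl2 and Pfn2 are at -1.91 or lower in suspension and at 2.03 or higher on re-adhesion in all of them, and Gsn is at 1.05 or higher in suspension. Cfl1 crosses 0 in both steps under quantile normalisation, and Cfl1, Cfl2, Pfn2 and Tmsb4x cross it between re-adherent and adherent cells under scaling to the spike-in probes, Cfl2 also with no scaling.

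The genes most like each member were taken as the 3 with the smallest Euclidean distance over its pair of log2 differences, among 13472 genes well above background on all 3 arrays. Over 2 differences such likeness is a description of these arrays. Next to Fscn1 were Thbs1, which encodes the matrix protein thrombospondin 1 and was at -4.07 and 3.92, and Bmp6, at -4.14 and 3.85. Next to Cfl2 were Nectin3, Cald1, which encodes caldesmon, an actin-binding protein of contractile cells, at -3.09 and 3.24, and Clca3a1. Pfn2 lay beside Gm13272, Gm13275 and Pcyt1b. For Gsn they were Pnpla2, Rab31 and Ypel5, at 1.48, 1.53 and 1.51 in suspension. Cfl1, Pfn1 and Tmsb4x lay within 2-fold in both steps, although Pfn1, at 0.92 on re-adhesion, had a higher difference than 82.6% of genes. The nearest genes of these members were, in this order, Ppm1a, Clip3 and Inhbe, Map3k5, Clpb and Guk1, and Zbtb45, Ppm1j and 5031425E22Rik.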

How the data were processed

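RNA from 3 pooled samples was hybridised to 1-colour (Cy3) Agilent arrays, 1 array a group. The only precision known is that of the array measurement, and the spread between cultures or animals is not known. The authors deposited scanner output from Agilent Feature Extraction 10.10.1.1, in which the processed signal is a background-subtracted intensity on a linear scale. The submitters' processing notes name the build mm9. The deposited value table, also an intensity, equalled the processed signal times 1 constant per array (1.52, 1.52 and 1.62) and served as an alternative.

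Control spots and 154 to 180 outlier spots an array were left out of 62976, and no other spot was saturated. Between 53.9% and 59.9% of spots were well above background. All 3 arrays lay on 1 slide with 1 scan. The log2 signal was reduced by the array's 75th percentile, spots of a probe were averaged, and the brightest probe well above background represented its gene. Probes were named through RefSeq transcripts without versions, and 21461 of 37881 transcript names matched. Gene positions and promoters are those of RefSeq on GRCm38.p6, where the 8 genes had 10 windows.

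A gene was measured where at least 1 array had it well above background, and calls used 2-fold. With 1 array a group no test or p-value was possible. Named besides the members were their close paralogues. From fixed lists of actin regulators, genes over 4-fold changed in suspension and well above background on both arrays were named. Counts were given for every list. Of the genes most like the members, 1 is not reported here. Ssh1, Ssh2, Limk1, Limk2, Wdr1, Cotl1, Twf2, Scin, Flii, Svil, Coro1b, Coro1c and Coro2b fall outside this rule. They were named after their values were seen. Cap2, Cobl and Lmod1 were also named outside it, as they were not well above background in suspension. The members and lists were chosen with earlier results of these data known.

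Alternatives were scaling to the median, to spike-in probes, by quantiles or not at all, another percentile, the deposited values, normexp (limma 3.58.1, R 4.3.3, offset 50, on median signals because the files hold no mean signal), a floor for low signals, other filters, the mean over probes, outlier spots kept, subtraction of the neighbouring spots' shift, and other fold thresholds. The code (Python 3.11.15) was tested on simulated data.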

Additional observations from a re-analysis of the deposited data

How the results depend on the processing

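Across the alternatives, Fscn1, Cfl2 and Pfn2 kept their direction and their side of 2-fold in both steps, and Gsn did so in suspension. Among the medians and counts over the members, 4 values moved. Medians counted as moved past a cut set wider than the software error, and counts when they changed by over 1.5 times or from 0. Scaling to the spike-in probes took the members' median to -0.82 in suspension and to -0.15 in re-adherent against adherent cells, and 1.5-fold in place of 2-fold raised the members called to 5 on re-adhesion and to 1 in re-adherent against adherent cells. The first of these scalings also moved the median of all genes in suspension from -0.07 to -0.51 and the split of all genes to 27.2% lower and 11.8% higher, and with no scaling the split on re-adhesion was 23.4% lower and 9.9% higher. For Gsn on re-adhesion quantile normalisation gave -1.37 and no scaling -1.03, both past 2-fold, while the deposited values gave -0.94, and for Cfl2 the mean over probes gave -2.54 in suspension. Of the single-gene values and paralogue contrasts, 406 stayed within the same cut as the medians and 23 passed it. Some of the 406 moved by more than the error itself. Cfl2 relative to Cfl1 in suspension, for example, went from -2.84 to -2.34 with the mean over probes. The cause was not tested. No paired analysis was possible because the design has no second array in any group, and for the same reason no replicate could be left out. Background limits Vil1 and, in suspension, Cap2, Cobl and Lmod1.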

Other observations

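Capping genes and genes for filament nucleation were listed apart from the families above. Among 10 measured capping genes, none was over 2-fold lower and 1 was over 2-fold higher in suspension, with a median log2 difference of -0.05 against -0.07 over all genes. The exception, Tmod1, which encodes a tropomodulin that caps slow-growing ends, was not well above background in adherent cells and was at least 2.20-fold higher in suspension. The subunits of capping protein, which closes fast-growing ends, were at 0.51 for Capza1, 0.45 for Capza2 and -0.07 for Capzb.

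Among 35 measured genes for nucleation and elongation, 9 were lower and 4 higher by over 2-fold in suspension, with a median of 0.13. The branching Arp2/3 complex lay mostly within 2-fold, with Actr2 at 0.71, Actr3 at -0.17 and Arpc2 at 0.26, and with Arpc3 at 1.44. Lower in suspension were the formin Diaph3, at -2.05, and Enah, at -2.57, which encodes an Ena/VASP protein that elongates filaments from profilin-bound monomers. Cobl, which encodes the nucleator cordon-bleu, was not well above background in suspension, where it was at least 38.9-fold lower than in adherent cells, and it was at least 75.7-fold higher on re-adhesion. Lmod1, which encodes a leiomodin of smooth muscle, was at least 10.6-fold lower in suspension and at least 6.79-fold higher on re-adhesion. Higher in suspension were Was, at 2.84, and Fmnl1, at 2.87, both best known from leukocytes, and most macrophage markers moved the same way. Actr2, Actr3, Arpc2, Arpc3, Capza1, Capza2, Capzb and Tmod1 were named after their values were seen.

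Over all 80 measured regulators besides the members, 14 (17.5%) were lower and 19 (23.8%) higher by over 2-fold in suspension. The shares over all genes were 14.7% and 17.2%. On re-adhesion 12 were lower and 12 higher, or 15% each, against 16.3% and 15.6% of all genes. Between re-adherent and adherent cells none was lower and 6 (7.5%) were higher, against 4.89% and 4.84% of all genes. Of 10 endothelial markers, 7 were over 2-fold higher in suspension and 9 over 2-fold lower on re-adhesion, and 7 were over 2-fold lower in re-adherent than in adherent cells, with a median log2 difference of -1.99. Their summed signals were 23.8, 38.9 and 22.3 in units of the 75th percentile, and without Kdr, the brightest of them, 9.3, 27.5 and 3.2. Of 6 measured cardiomyocyte markers, 2 were over 2-fold higher in suspension, and the median between re-adherent and adherent cells was 0.02. Their summed signals were 1.3, 2.0 and 3.4, and without Tnnt2, the brightest of them, 0.4, 0.7 and 0.4.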
